A study of Mus musculus with 8 samples.

Results

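Arachidonate lipoxygenases were examined in MIN6, a cell line from a mouse pancreatic tumour that makes insulin, after forced expression of the transcription factor Klf4. The group was chosen by gene name and held 8 of the 55536 genes in the count table: the lipoxygenase genes Alox12b, Aloxe3, Alox8, Alox12, Alox12e, Alox15 and Alox5, and Alox5ap, which encodes the membrane protein that aids 5-lipoxygenase. The family was taken up because Alox12b was among the strongest responders to Klf4, so its values in that comparison, and those of its relatives, are a description and carry no test. The study asked how misexpressed Klf4 changes the MIN6 transcriptome. All 8 libraries were of wild-type MIN6 cells after 48 h with the lipid reagent Lipofectamine 3000. In 4 of them (control) the plasmid was the empty vector pcDNA 3, and in the other 4 (Klf4) it was pGloMyc-Klf4, so by their names the plasmid backbone and the Klf4 sequence changed together. Replicates 1 and 2 of each group were labelled batch 1, and replicates 3 and 4 batch 2. The series text calls the replicates biological without saying whether they came from separate cultures, and the extraction text speaks of islets although every library is named for MIN6.

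Lipoxygenases are iron enzymes that add oxygen to polyunsaturated fatty acids and so make hydroperoxides, the start of leukotrienes, hepoxilins and related lipid signals. In skin the enzymes encoded by Alox12b and Aloxe3 act in sequence on a linoleate-carrying ceramide of the water barrier, and loss of either gene causes ichthyosis. In islets the family is best known for the 12/15-lipoxygenase encoded by Alox15, and Alox5 and Alox5ap are known from leukocytes. In bulk RNA such as this, more cells of a type and more RNA per cell cannot be told apart.

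Of the 8 genes, 6 lie in 2 groups on chromosome 11 (GRCm38). In the first, Aloxe3 (ENSMUSG00000020892, 69125896 to 69149115, plus strand) is followed after 7873 bases by Alox12b (ENSMUSG00000032807, 69156989 to 69169792, plus strand) and after a further 14139 bases by Alox8 (ENSMUSG00000020891, 69183932 to 69197843, minus strand). The other group, 1043613 bases further on, holds Alox12 (ENSMUSG00000000320, 70241457 to 70255353), Alox12e (ENSMUSG00000018907, 70315610 to 70322628) and Alox15 (ENSMUSG00000018924, 70344152 to 70352031), all on the minus strand. Alox5 (ENSMUSG00000025701) is on chromosome 6, 116410077 to 116461178, minus strand, and Alox5ap (ENSMUSG00000060063) on chromosome 5, 149264767 to 149288153, plus strand. The coding sequence of Alox12b was 61.7% identical to that of Aloxe3 and 60.6% to that of Alox8, against 55.6% for Alox12, 56.4% for Alox5, 54.3% for Alox12e and 53.3% for Alox15. Alox12, Alox12e and Alox15 were 65.7% to 67.4% identical to each other. Even so, none of the 2382 runs of 50 bases in the Alox12b transcript occurred in a transcript of another gene, so its reads had no near-identical copy to be shared with. Such shared runs made up 1.79% of Alox8, 0.383% of Aloxe3 and 0.372% of Alox12, none of them with another lipoxygenase. Alox5ap shared 13.3% of its exonic bases with the antisense gene Gm19719, which leaves its counts uncertain, since the strand setting of the counting is not given.

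The sequences before the starts of 3 of these genes are printed so that the gene the results turn on, Alox12b, can be set beside its neighbour Alox8 and beside Alox12 from the other group. They are RefSeq sequences of GRCm38.p6, matched by symbol for 5 of the 8 genes, written 5′ to 3′ on the gene's own strand. Capitals mark CACCC or its reverse complement GGGTG, the core of sites bound by Krüppel-like factors, and the GC box CCGCCC or GGGCGG. The 167 bases at chr11:69156822-69156988 (plus strand) end where the GENCODE model of Alox12b begins, and the 250 bases at chr11:69197844-69198093 and chr11:70255371-70255620 (minus strand) precede the RefSeq starts of Alox8 and Alox12.
Alox12b: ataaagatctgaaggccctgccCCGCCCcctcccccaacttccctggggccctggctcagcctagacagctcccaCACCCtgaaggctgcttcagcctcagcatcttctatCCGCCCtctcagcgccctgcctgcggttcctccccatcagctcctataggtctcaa
Alox8: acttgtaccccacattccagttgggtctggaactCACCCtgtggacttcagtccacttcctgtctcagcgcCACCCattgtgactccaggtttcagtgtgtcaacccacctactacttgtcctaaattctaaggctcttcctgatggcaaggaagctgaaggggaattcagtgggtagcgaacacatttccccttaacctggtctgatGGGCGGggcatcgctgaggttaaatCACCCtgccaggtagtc
Alox12: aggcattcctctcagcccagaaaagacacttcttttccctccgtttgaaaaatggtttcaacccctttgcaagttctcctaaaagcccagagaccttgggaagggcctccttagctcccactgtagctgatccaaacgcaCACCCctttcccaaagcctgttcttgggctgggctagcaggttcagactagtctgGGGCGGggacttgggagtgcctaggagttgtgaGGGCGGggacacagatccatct
Over the 250 bases before the RefSeq start, CACCC on either strand occurred 1 time for Alox12b, 3 times for Alox8, 1 time for Alox12 and 1 time for Alox12e, and Alox5 held no match. It was found in 52% of 32851 promoter windows of that length. The longer run CCCCACCC, which contains CACCC, was in 9.05% of the windows and in none of these 5. The GC box, chosen after the sequences had been seen, occurred 3 times for Alox12b (1 of them past the printed stretch), 2 times for Alox12 and 1 time each for Alox8, Alox5 and Alox12e, against 32.7% of windows with at least 1. A match is a description of letters and not of a bound site.

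The libraries held 45417853 to 52731176 counts each. The Klf4 gene itself had 1743 to 2060 counts in control and 205171 to 308667 in Klf4 libraries, with reads of the plasmid and the cells' own gene counted together. The β-cell markers were all present, with a summed level over 12 genes of 31878 to 39939 CPM in control and 29823 to 40243 CPM in Klf4 libraries, most of it Ins2, Chga, Iapp and Ins1. Of the 12, 5 fell in edgeR (Iapp, Pdx1, Mafa, Slc30a8 and G6pc2), with log2 fold changes of -0.22 to -0.07, and 0 rose. The share lower was 41.7%, beside 15.5% of all genes. Of the 18266 genes tested, 6684 (36.6%) passed an adjusted p of 0.05 in edgeR, 57.7% of them higher, and 72.8% of calls were higher when the libraries were scaled on abundant genes alone. Lower calls over all genes went from 2828 to 1638 under that scaling, and to 1159 without a batch term, so small falls depend on these choices.

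Alox12b, the 12R-lipoxygenase of the epidermis, went from the fourth-ranked to the highest level in the family. Its level was 0.765, 0.616, 0.609 and 0.663 CPM (TMM-scaled counts relative to the library total) in control replicates 1 to 4, from 30 to 36 counts a library. It was 29.3, 27.6, 36.4 and 39.9 CPM in Klf4 replicates 1 to 4, from 1250 to 2104 counts. Every Klf4 library was far above every control library, and the batch 2 Klf4 libraries were above those of batch 1. The mean went from 0.663 ± 0.0719 to 33.3 ± 5.8 CPM (SD, n = 4), a 50.2-fold difference, with a log2 fold change of 5.64 (SE 0.10, 95% interval 5.45 to 5.84). By this value it ranked 244 among 18266 genes, between Tgm1 at 5.65 and Tnfrsf8 at 5.64.

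Aloxe3, whose enzyme converts the hydroperoxide made by Alox12b into an epoxyalcohol, differed by far less. Its control values were 3.14, 3.37, 2.7 and 2.86 CPM and its Klf4 values 4.49, 4.77, 3.84 and 5.97 CPM. The groups did not overlap. The means were 3.02 ± 0.298 and 4.77 ± 0.892 CPM (SD, n = 4), a log2 fold change of 0.66 (SE 0.13, 95% interval 0.39 to 0.93).

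Alox8 encodes the 8S-lipoxygenase of mouse skin and had the highest level per length of the lipoxygenases in control cells. It stood at 4.27, 4.52, 3.51 and 3.46 CPM in control and at 4.37, 3.93, 3.04 and 2.79 CPM in Klf4 libraries. The groups overlapped, and both were lower in batch 2. The log2 fold change was -0.16 (SE 0.11) with a 95% interval of -0.38 to 0.06.

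In the other group on chromosome 11, Alox12, the platelet-type 12S-lipoxygenase, had 0.446, 0.452, 0.304 and 0.518 CPM in control and 1.08, 1.21, 0.818 and 0.91 CPM in Klf4 libraries. The Klf4 libraries were all above the control libraries, with a log2 fold change of 1.21 (SE 0.25, 95% interval 0.69 to 1.74). Alox15, the 12/15-lipoxygenase, rested on 11, 2, 2 and 8 counts in control and 26, 13, 32 and 18 counts in Klf4 libraries. Its groups did not overlap either, at 0.12 ± 0.0958 and 0.435 ± 0.148 CPM (SD, n = 4) and a log2 fold change of 1.85 (SE 0.47, 95% interval 0.87 to 2.83). Alox12e, the epidermal-type 12-lipoxygenase that lies between these genes, had 0, 2, 0 and 0 counts in control and 1, 0, 2 and 0 in Klf4 libraries. It did not reach the count filter and was not detectable above 2 counts in any library.

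In the leukotriene arm Alox5 was barely detected and the groups overlapped for Alox5ap. Alox5, the 5-lipoxygenase, had 4, 1, 3 and 1 counts in control and 2, 0, 4 and 4 in Klf4 libraries, which is under the filter and too few to compare the groups. Alox5ap had 2.55, 2.86, 2.31 and 3.19 CPM in control and 3.23, 2.98, 3.29 and 3.47 CPM in Klf4 libraries. The groups overlapped, and the log2 fold change of 0.25 (SE 0.13) had a 95% interval of -0.01 to 0.51. Of 16 leukocyte and platelet markers, 5 were tested and 0 passed in edgeR, beside 36.6% of all genes (0 at an unadjusted p under 0.05, 0 in DESeq2 and 0 in limma-voom). Their summed level was 12.8 to 14.3 CPM in control and 11.96 to 15.9 CPM in Klf4 libraries, most of it Cd68 and Itga2b. S100a8, S100a9, Cpa3 and Pf4 were at 0 in every library.

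**Figure D1:**
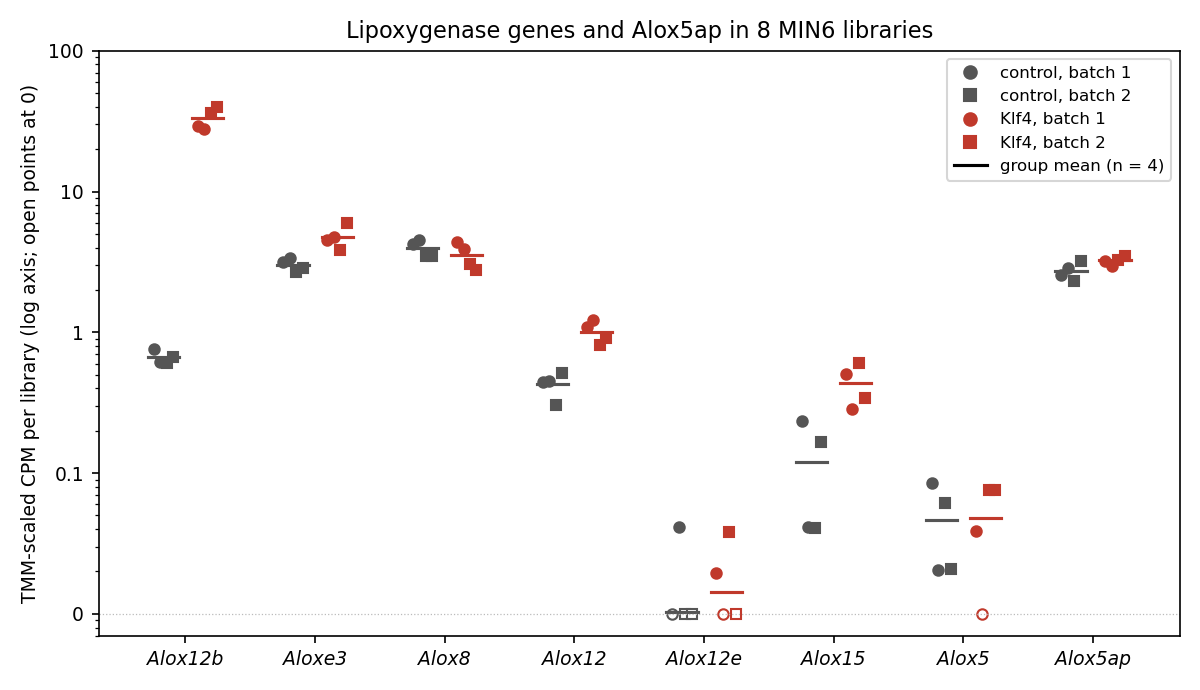
TMM-scaled CPM of the 7 lipoxygenase genes and Alox5ap in each library on a log axis, with bars for group means (n = 4) and open points for libraries at 0. Alox12b sits at 0.609 to 0.765 in control and 27.6 to 39.9 in Klf4 libraries, Alox12, Alox15 and Aloxe3 separate by less, and Alox8, Alox5ap, Alox5 and Alox12e overlap.

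In all, 6 of the 8 genes passed the count filter, and 4 of these (Alox12b, Alox15, Alox12 and Aloxe3) passed the adjusted p of 0.05 in edgeR with higher values, beside 36.6% of all genes in either direction and 21.1% higher. The same 4 had groups that did not overlap, beside 26.1% of all genes, 17.2% with Klf4 higher and 8.93% lower. Of the 4, Alox12b, Alox15 and Alox12 (3 genes) also passed 1 on the log2 scale, beside 8.69% of all genes past that size in either direction. The median log2 fold change of the 6 was 0.94, against -0.01 over all tested genes. Alox15, at 2 to 11 counts in control, passed the count filter only through its Klf4 libraries, at 13 to 32 counts. Because of this, and because the comparison itself led to the choice of the family, nothing is read from these counts. Taking batch 1 and then batch 2 alone, Alox12b gave log2 fold changes of 5.36 and 5.90. The values were 1.53 and 2.18 for Alox15, 1.35 and 1.07 for Alox12, and 0.51 and 0.82 for Aloxe3. They were -0.08 and -0.26 for Alox8 and 0.20 and 0.30 for Alox5ap.

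To compare genes with each other, levels were divided by exonic length and given as CPM per kilobase. In control cells the order was Alox5ap (1.92 ± 0.268), Alox8 (1.11 ± 0.15), Aloxe3 (0.472 ± 0.0466) and Alox12b (0.273 ± 0.0296), each above the next in every library. Below them came Alox12 (0.105 ± 0.022), Alox15 (0.049 ± 0.0391), Alox5 (0.0114 ± 0.00773) and Alox12e (0.00363 ± 0.00727), whose neighbouring ranges overlapped (SD, n = 4). In Klf4 cells Alox12b led at 13.7 ± 2.39 CPM per kilobase, with its lowest library at 11.4 and the highest Alox5ap library at 2.44. Alox8 (0.993 ± 0.209) and Aloxe3 (0.745 ± 0.139) overlapped, as did Alox12 (0.246 ± 0.0434) and Alox15 (0.177 ± 0.0602). Aloxe3 has 6 annotated transcripts, 1 of them coding, whose exons were merged here. On the length of its longest coding transcript, an alternative added after the data had been seen, Aloxe3 reached 0.999 in control and 1.58 in Klf4 cells, and then lay above Alox8 (1.1) in Klf4 cells.

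The make-up of the family differed between the groups. Summed over the 7 lipoxygenase genes, the level was 1.76 to 2.23 CPM per kilobase in control and 13.6 to 18.5 in Klf4 libraries. Without Alox12b the sums were 1.51 to 1.94 and 1.94 to 2.42. Alox8 held 54.7% ± 2.75 of the control sum, Aloxe3 23.4% ± 0.916 and Alox12b 13.6% ± 1.36 (SD, n = 4). In Klf4 libraries Alox12b held 86% ± 3.04, Alox8 6.47% ± 2.14 and Aloxe3 4.73% ± 0.826 (SD, n = 4). On the length of the longest coding transcript, again added after the data had been seen, Alox8 held 45.04% ± 2.15, Aloxe3 37.0% ± 1.17 and Alox12b 10.1% ± 1.05 of the control sum (SD, n = 4). In Klf4 libraries the shares were then 80.7% ± 3.58 for Alox12b, 9.39% ± 1.56 for Aloxe3 and 6.69% ± 2.16 for Alox8 (SD, n = 4), so that Aloxe3 came before Alox8. On merged exons the 2 batch 2 Klf4 libraries gave Alox12b 88.5% and 88.7%, and the 2 of batch 1 gave 83.3% and 83.4%.

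**Figure D2:**
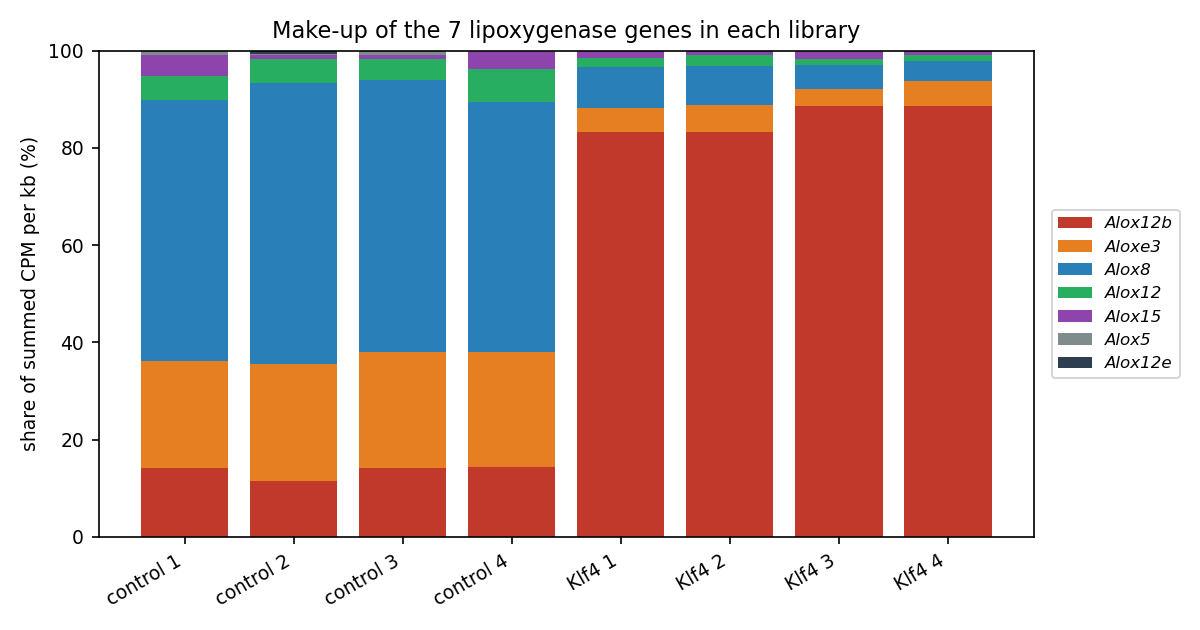
Stacked bars of each lipoxygenase gene's share (%) of the summed CPM per kilobase in the 8 libraries. Alox8 takes 51.4% to 57.8% of each control library, and Alox12b takes 83.3% to 88.7% of each Klf4 library.

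Batch was not used to choose the family, so its effect could be tested. Between batches, with the plasmid in the model, Alox12b was higher in batch 2 (log2 difference 0.38, SE 0.08, edgeR adjusted p = 0.000729) and Alox8 was lower (-0.42, SE 0.11, edgeR adjusted p = 0.00492). These were 2 of 6 genes, beside 25.1% of all genes. The Alox12b difference was seen in the Klf4 libraries, and its control values overlapped between batches. Alox12, Alox15, Aloxe3 and Alox5ap gave edgeR adjusted p-values of 0.433 to 0.951. The response to the plasmid differed between batches for 0 of the 6 in edgeR (0 at an unadjusted p under 0.05, 0 in DESeq2 and 0 in limma-voom), beside 0.766% of all genes. For Alox12b that difference was 0.54 on the log2 scale with a 95% interval of -0.01 to 1.08 (edgeR adjusted p = 0.475). The Klf4 gene gave 0.37 in the same term (SE 0.07, edgeR adjusted p = 0.0057), with 4873 and 4532 CPM in the batch 1 and 4903 and 5853 CPM in the batch 2 Klf4 libraries. Whether the Klf4 level accounts for the Alox12b level was not tested.

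The genes around the family lie in the same stretches of chromosome. Within 100 kb of a member lay 55 other genes of the table, of which 25 were tested. Of these 3 were higher and 6 lower (36%, beside 36.6% of all genes), with log2 fold changes of -0.46 to 0.58 and a median of -0.05. None of the 25 passed at a size of 1 or more on the log2 scale. Of the 30 that did not reach the filter, 1 had groups that did not overlap: Clec10a, a lectin gene 70622 bases before Alox12, had 1, 1, 2 and 2 counts in control and 9, 19, 13 and 11 in Klf4 libraries, a mean 8.48-fold difference that was not tested. Clec10a was chosen after its values were seen. How often groups separated among all genes under the filter was not computed, so nothing is read from this count. Before Aloxe3, Hes7, a Notch-pathway repressor, gave 0.58 (SE 0.23, edgeR adjusted p = 0.0481), a call that was lost in 9 of 16 alternatives, among them the fits without control replicates 1, 3 or 4 or without Klf4 replicates 2, 3 or 4 (adjusted p = 0.0778 to 0.158), and Hes7 shares 12.9% of its exons with 9130213A22Rik. Beyond Alox8, Gucy2e, a guanylate cyclase gene, gave 0.08 (SE 0.13, edgeR adjusted p = 0.672). Beside Alox12, Rnasek gave -0.05 (SE 0.22, edgeR adjusted p = 0.892) and shares 67.7% of its exons with Gm21988. Pelp1, beyond Alox15, fell by 0.10 (SE 0.03, edgeR adjusted p = 0.0126), a call lost in 2 of 16 alternatives. Uspl1, before Alox5ap, fell by 0.16 (SE 0.04, edgeR adjusted p = 0.00422), a call lost in 1 of 16 alternatives. On either side of Alox5, March8 gave -0.03 (SE 0.03, edgeR adjusted p = 0.496) and Gm5580 0.28 (SE 0.31, edgeR adjusted p = 0.530).

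**Figure D3:**
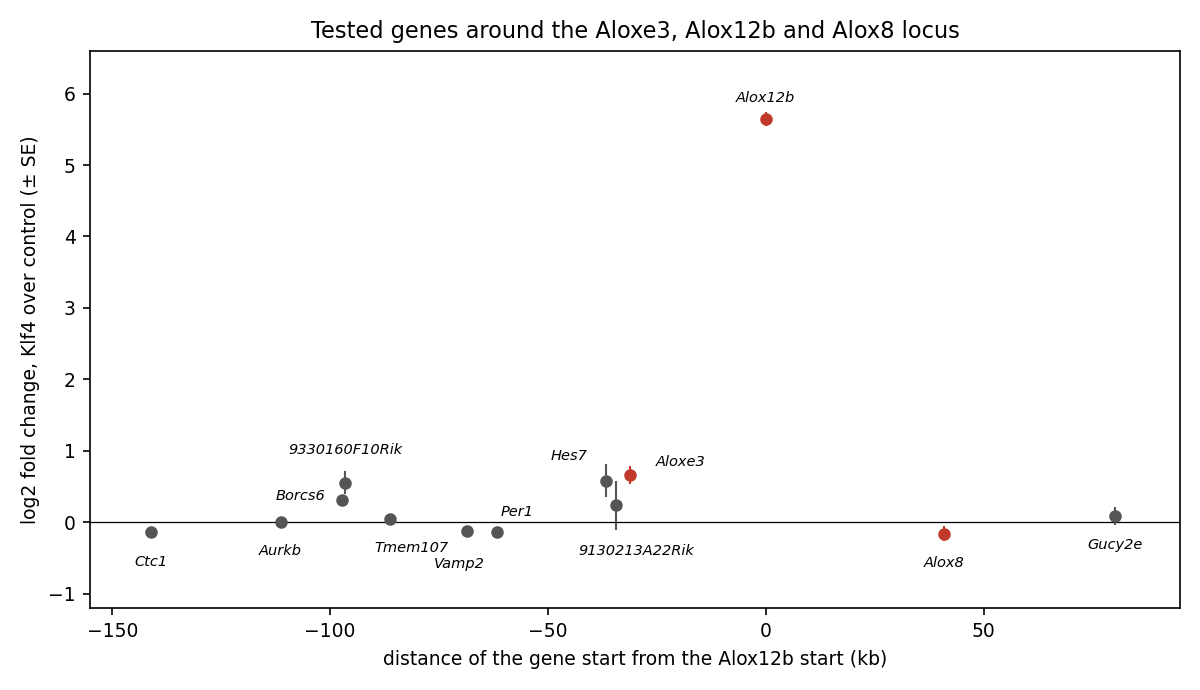
Log2 fold change (± SE, Klf4 over control, n = 4 per group) of tested genes against the distance of each gene's start from the Alox12b start in kilobases, with lipoxygenases in red. Alox12b stands at 5.64, Aloxe3 at 0.66 and Alox8 at -0.16, and the other genes lie between -0.14 and 0.58.

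The wider pathway was described from 5 lists of textbook genes, which were chosen with earlier results of these data known. Of 95 genes listed, 68 were tested and 33 passed in edgeR (48.5%, beside 36.6% of all genes), 29 higher and 4 lower. The median log2 fold change of the 68 was 0.17, against -0.01 over all tested genes. The share higher was 42.6%, beside 21.1% of all genes. Of the higher genes, 17 reached 1 or more on the log2 scale. Because of how the lists were chosen, these counts and shares are a description and nothing is read from them. The adjusted p-values of pathway genes are from edgeR over all tested genes. Pla2g4e, Pla2g4d, Pla2g2e, Cyp4f39 and Ptgir, at no more than 7 counts in any control library, passed the count filter only through their Klf4 libraries. The same holds for Ptgs1, Cmklr1, Cyp4f14 and Mgst2. Pla2g2f, Ptges, Slco2a1 and Pla2g5 also needed their Klf4 libraries to pass, since their lowest control library held 9, 8, 8 and 6 counts. The adjusted p-values of such genes are a description.

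The acylceramide and barrier-lipid list holds the genes that make, move and attach the ceramide on which Alox12b acts. Of 17 tested, 9 rose (52.9%, beside 21.1% of all genes) and 8 did not pass. Cyp4f39, the ω-hydroxylase that prepares the acyl chain, rose from 4, 4, 7 and 1 counts to 579, 476, 821 and 871 counts, with a log2 fold change of 7.30 (SE 0.17, adjusted p = 2.90e-19). Tgm1, the transglutaminase that crosslinks the cornified envelope, rose from 0.275 ± 0.107 to 13.9 ± 1.14 CPM (SD, n = 4), by 5.65 (SE 0.15, edgeR adjusted p = 1.76e-18). In both genes every Klf4 library was above every control library, and 5.76% of the Tgm1 exons overlap another gene. Pnpla1, which joins linoleate to the ceramide, rose by 5.04 (SE 0.20, adjusted p = 2.37e-15), and 13.3% of its exons overlap the antisense gene Pnpla1os. Sdr9c7, the dehydrogenase that follows Aloxe3, went from 0.321 ± 0.0579 to 0.676 ± 0.158 CPM (SD, n = 4) and rose by 1.07 (SE 0.30, edgeR adjusted p = 0.00664). Cers3, the ceramide synthase of this pathway, gave 0.16 (SE 0.35, edgeR adjusted p = 0.772), at 0.331 ± 0.156 and 0.361 ± 0.0315 CPM (SD, n = 4). Their Klf4 and control libraries separated for Pnpla1 and Sdr9c7 and overlapped for Cers3. Slc27a4, a fatty acid transporter with the highest control CPM in the list, gave -0.04 (SE 0.03, adjusted p = 0.311). Sptlc2, a subunit of the first enzyme of ceramide synthesis, rose by 0.11 (SE 0.03, adjusted p = 0.0156), a call that was lost in 4 of 16 alternatives, among them the fits without control replicate 1 or without Klf4 replicates 1 or 2 (adjusted p = 0.0570 to 0.195). Abca12, Lipn and Nipal4 had at most 10 counts in any library and were not tested.

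Among phospholipases A2, which free fatty acids from membrane lipids, 6 of 15 tested rose, 2 fell and 7 did not pass. Thus 53.3% passed and 40% were higher, beside 36.6% and 21.1% of all genes. Pla2g2f, a secreted form known from the epidermis, rose from 0.325 ± 0.168 to 13.2 ± 1.55 CPM (SD, n = 4), or by 5.33 (SE 0.15, edgeR adjusted p = 6.34e-18). Pla2g2e, another secreted form, rose by 3.73 (SE 0.46, adjusted p = 7.03e-07), from 5, 1, 3 and 1 counts to 37, 35, 49 and 24 counts. The cytosolic Pla2g4e had 1 count over the 4 control libraries and 67, 30, 58 and 36 counts in Klf4 libraries, a ratio of 182.6 with a 95% counting interval of 32.4 to 7248 (adjusted p = 5.68e-09). Pla2g4d likewise had 1 count in control and 22, 14, 14 and 17 counts in Klf4 libraries, a ratio of 64.0 with a 95% counting interval of 11.1 to 2567 (adjusted p = 2.37e-06). These are forms described in skin. Pla2g4a, the form best known for releasing arachidonate, gave 0.30 (SE 0.35, edgeR adjusted p = 0.553), at 0.275 ± 0.0822 and 0.339 ± 0.0708 CPM (SD, n = 4). The 2 forms with the highest control CPM were lower. Pla2g12a fell by 0.19 (SE 0.04, adjusted p = 0.000864), a call lost in 1 of 16 alternatives. Pla2g6 fell by 0.10 (SE 0.04, adjusted p = 0.0449), a call lost in 9 of 16 alternatives, among them the fits without control replicates 1 or 3 or without Klf4 replicates 1, 3 or 4 (adjusted p = 0.0557 to 0.124). It gave an adjusted p of 0.0709 with the replicate number as a block.

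Among enzymes that act on lipoxygenase products, 5 of 16 tested rose and 11 did not pass. The share that passed was 31.2%, all higher, beside 36.6% of all genes in either direction and 21.1% higher. Mgst3, a microsomal glutathione transferase, rose from 6.53 ± 0.668 to 22.9 ± 2.50 CPM (SD, n = 4), by 1.80 (SE 0.08, edgeR adjusted p = 1.61e-14). Cyp4f14, a leukotriene and fatty acid hydroxylase, rose by 1.63 (SE 0.38, adjusted p = 0.00143). Mgst2, a relative of leukotriene C4 synthase, rose by 1.02 (SE 0.38, adjusted p = 0.0378) on 6 to 14 control and 17 to 30 Klf4 counts, a call lost in 9 of 15 alternatives, among them the fits without control replicates 2, 3 or 4 or without Klf4 replicates 1, 2 or 4 (adjusted p = 0.0515 to 0.160). It gave an adjusted p of 0.0602 with the replicate number as a block. Lta4h, which makes leukotriene B4, gave 0.05 (SE 0.04, adjusted p = 0.436), and Ltc4s, with 2 to 12 counts a library, was not tested. The peroxidases Gpx1 (0.06, SE 0.03, adjusted p = 0.105) and Gpx4 (-0.03, SE 0.03, adjusted p = 0.554), which reduce hydroperoxides, did not pass. With scaling on abundant genes Gpx1 passed at 0.09 (adjusted p = 0.0106).

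Of 9 receptors for these lipids, 2 were tested. Cmklr1, a receptor for chemerin that has also been linked to resolvins, rose from 0.190 ± 0.113 to 3.93 ± 1.66 CPM (SD, n = 4), by 4.34 (SE 0.27, edgeR adjusted p = 7.60e-12). Its Klf4 counts were 169, 87, 260 and 295, higher in batch 2. Ltb4r2, a receptor for leukotriene B4 and related lipids, gave -0.54 (SE 0.44, adjusted p = 0.377). Cysltr1, Oxgr1, Gpr31b and Fpr2 were at 0 in every control library. Ltb4r1, a receptor for leukotriene B4, was not tested and had 4, 10, 3 and 5 counts in control and 3, 2, 0 and 0 in Klf4 libraries. Its CPM values did not overlap, but only by library scaling, since the closest libraries held 3 counts each (0.0609 and 0.0581 CPM). Ephx2, an untested gene of the enzyme list, separated the other way, with 1, 0, 0 and 0 counts in control and 6, 6, 11 and 4 in Klf4 libraries.

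In the cyclooxygenase branch, which draws on the same fatty acids, 8 of 18 tested rose, 2 fell and 8 did not pass. Thus 55.6% passed and 44.4% were higher, beside 36.6% and 21.1% of all genes. Ptgs1, the constitutive cyclooxygenase, had 17, 8, 4 and 1 counts in control and 924, 718, 992 and 939 in Klf4 libraries. This was 0.157 ± 0.148 and 17.6 ± 1.26 CPM (SD, n = 4), a rise of 6.80 (SE 0.19, edgeR adjusted p = 5.97e-18). Without control replicate 1, which held 17 of the 30 control counts, it was 7.59. Within batches 1 and 2 it was 6.002 and 8.41 (edgeR adjusted p of the difference = 0.0711). The inducible Ptgs2 fell by 0.47 (SE 0.10, edgeR adjusted p = 0.000489), at 5.82 ± 2.13 and 4.17 ± 1.41 CPM (SD, n = 4), with groups that overlapped across batches. Ptgir, the prostacyclin receptor, rose by 5.13 (SE 0.30, adjusted p = 3.60e-12). The prostaglandin transporter Slco2a1 rose by 3.01 (SE 0.24, adjusted p = 6.05e-10), and the prostaglandin E synthase Ptges by 2.77 (SE 0.22, adjusted p = 5.91e-10). The thromboxane receptor Tbxa2r rose by 1.16 (SE 0.28, adjusted p = 0.00219). Ptges3, with the highest control CPM of the list, fell by 0.12 (SE 0.03, adjusted p = 0.00330), a call lost in 1 of 16 alternatives. Akr1b3, next by CPM, gave 0.06 (SE 0.03, adjusted p = 0.190) and passed with scaling on abundant genes (0.09, adjusted p = 0.0356).

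**Figure D4:**
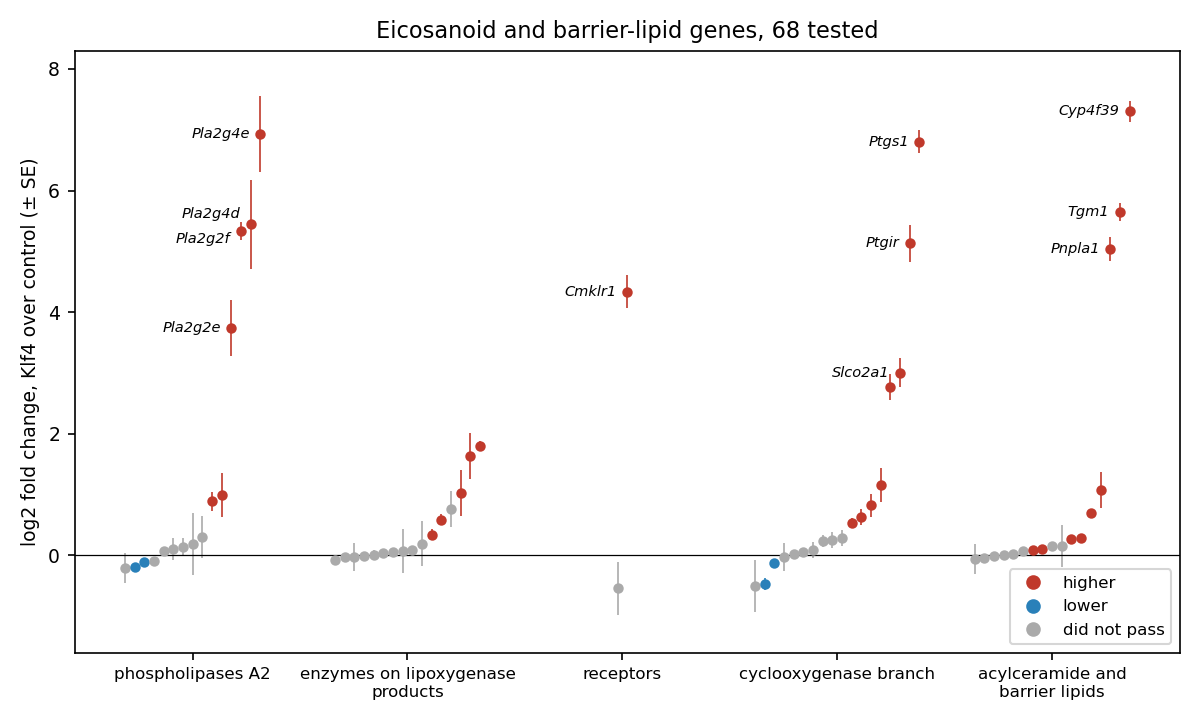
Log2 fold change (± SE, Klf4 over control, n = 4 per group) of the 68 tested genes in 5 lists, with colours for higher, lower and not passing in edgeR at an adjusted p of 0.05. The highest points are Cyp4f39 at 7.30, Pla2g4e (1 control count) at 6.93 and Ptgs1 at 6.80, and most others lie near 0.

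Some markers of keratinocytes, the cells in which Alox12b is best known, were higher in Klf4 libraries, and others had few or no counts. Of 12 listed, 7 were tested, 6 rose and 1, Krt10, did not pass (0.13, SE 0.10, edgeR adjusted p = 0.370). The share higher among those tested was 85.7%, beside 21.1% of all genes, on a list chosen with earlier results known. The summed level of the 12 was 8.57 to 12.2 CPM in control and 96.8 to 130.3 CPM in Klf4 libraries. Most of the difference was in Sbsn, a gene of suprabasal keratinocytes (4.17 ± 0.556 to 72.4 ± 9.94 CPM, SD, n = 4). The regulator Trp63 and the envelope gene Ivl were at 0 in every library, Krt1 and Flg reached at most 7 counts, and Krt5 had 2 to 7 counts in control and 9 to 13 in Klf4 libraries. Krt14 went from 1 count over the control libraries to 766 to 1528 counts in each Klf4 library (edgeR adjusted p = 8.20e-22). Dsg3 likewise had 1 count over the control libraries and 520 over the Klf4 libraries. Both passed the count filter only through their Klf4 libraries, so the adjusted p-value and the share higher are a description. The part of these markers in the Alox12b values was not tested.

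The 5 genes whose profile over the 8 libraries lay closest to that of Alox12b were found by Euclidean distance between centred log2 CPM values, which rests on the same comparison and is a description. They were Fyb2 (distance 0.37), AU021092 (0.39), Gm20610 (0.40), Pou3f3 (0.45) and Nfatc1 (0.50). The first 4 had no counts in control and were at least 8.64-fold, 7.63-fold, 7.17-fold and 8.25-fold higher in Klf4 libraries against a floor of 3 counts per library, so their distance depends on the prior count of 0.5. Nfatc1, a calcium-regulated transcription factor, had 2 to 3 counts in each control library and 120 to 222 in each Klf4 library. The nearest lipoxygenase, Alox15, was at 5.43 and ranked 969 by distance, and Aloxe3 was at 7.06 and ranked 2063.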

How the data were processed

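RNA of 4 control and 4 Klf4-transfected MIN6 libraries had been sequenced. The authors deposited whole-number read counts per gene, 1 column per library, not normalised. The deposited table's name records cutadapt trimming, and FastQC, STAR, featureCounts, edgeR and the mm10 build are named in the submitters' processing notes. Versions and the strand setting are not given in the sources used here. All 55536 identifier and symbol pairs matched GENCODE M21 (GRCm38), which gave positions, exons and transcripts. Promoter sequences are from RefSeq (GRCm38.p6).

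Counts were analysed with edgeR 4.0.16 (limma 3.58.1, DESeq2 1.42.0, R 4.3.3; Python 3.11.15 for figures). filterByExpr with a minimum count of 10 kept 18266 genes. A gene could pass it through the libraries of either group alone. TMM factors were 0.996 to 1.01. The quasi-likelihood model held batch and plasmid, as the series' design text names edgeR with batch correction, and p-values were adjusted by Benjamini-Hochberg over all tested genes. SE is the log2 fold change over the root of F. Intervals of count ratios are exact and cover counting error only. P-values weigh an effect against the spread between libraries of one group that is left after the batch term, with variances partly shared across genes. Since separate cultures are not stated, it cannot be told whether this spread is biological or technical. Deviations from the group means correlated at 0.459 to 0.614 between libraries of the same replicate number (4 pairs, over 10485 genes). These libraries also share a batch, so the correlations cannot show that replicate numbers pair libraries. Control replicate 2 correlated best with Klf4 replicate 1 of its batch, the other 3 with their own number. Replicates differed by more than sampling noise. Chi-square per degree of freedom was 3.96 to 5.31 between libraries of one group and batch, and 15.8 to 21.1 between batches within a group. The fit was tested on simulated data.

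The members and lists were chosen with earlier results of these data known. Named genes were all members, Klf4, up to 6 called genes per list with a log2 fold change of at least 1 and the 2 others of highest control level, the nearest tested neighbours within 100 kb, and the 5 nearest profiles. Ptgs2, Pla2g4a, Cers3, Lta4h, the untested genes and the markers were named after their values were seen.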

Additional observations from a re-analysis of the deposited data

Results flagged for a closer look

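A library standing apart from the other 3 of its group was looked for in 96 groups of values and found in 6, where chance gives about 4.8. Klf4 replicate 2 had 45417853 counts in total, against 51891997 to 52731176 in the other Klf4 libraries. Control replicate 2 held 0.0411 CPM of Alox12e, which is 2 counts, where the other control libraries had 0. Control replicate 4 held 0.0207 CPM of Pla2g4e and control replicate 1 held 0.0212 CPM of Pla2g4d, 1 count each, where the others had 0. Control replicate 4 had 0.0414 CPM of Nfatc1, 2 counts, against 3 counts in each of the others. Klf4 replicate 4 had 94.3 CPM of Pelp1, above the 89.5 to 90.3 CPM of the other Klf4 libraries.

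The effect of the plasmid on Klf4 itself was larger in batch 2 than in batch 1 by 0.371 on the log2 scale (edgeR interaction term, adjusted p = 0.0057).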

How the results depend on the processing

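As a description only, the log2 fold change of Alox12b ranged from 5.53 to 5.76, Aloxe3 from 0.49 to 0.75, Alox12 from 1.10 to 1.39 and Alox15 from 1.51 to 2.43, all limits set by fits without 1 library. The count of members that passed was 4 throughout, except 2 with a filter of at least 1 CPM in 4 libraries, under which Alox12 and Alox15 were not tested. Over all genes 6684 calls became 4116 without a batch term. Without 1 library it was 5889 to 7074 over all genes, 4 among members, 29 to 34 of the pathway genes, 0 for the batch difference and 2 for the batch effect. The replicate block gave 6284 calls over all genes, 4 among members and 29 against 33 in the pathway. Among the pathway calls it ended were those of Pla2g6, Mgst2 and Pla2g5 (adjusted p = 0.0612). Enzymes on lipoxygenase products gave 5 calls, but 8 with scaling on abundant genes or no filter and 3 with the 1 CPM filter or no batch term. Phospholipases gave 8 calls, but 3 with the 1 CPM filter and 5 without a batch term. Lower pathway genes numbered 4, and 0 without a batch term. Across 108 results and 1135 recomputed values, 1074 kept direction and call or size, 36 lost a call, 2 gained one, 23 counts, shares or levels moved and 0 reversed. Motif counts in the last 100 bases were 0 for CACCC in Alox12b and 1 for the GC box. Depth limits Alox5, Alox12e and Alox15, with at most 32 counts a library.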
